A study of Tetranychus urticae with 4 samples.

Results

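Among the genes that take many reads in the intact female spider mite, 245 of the 18020 listed genes were read at a far lower level in its dissected front body. They were chosen by their reads in these same libraries. A gene entered the set with a whole-body mean of at least 100 CPM (reads of a gene scaled to a common library total), at least 1 read in the front-body library, and a front-body to whole-body ratio of at most 1/16, with 0.1 CPM added to both levels. The libraries were 1 from the dissected proterosoma of 250 adult females and 3 from 100 intact adult females each, all of the London strain of Tetranychus urticae. The labels give no other treatment, genotype or age, and each library pools its animals. Nothing in the labels says that the 3 whole-body pools came from separate cultures, so the spread between them may be technical. The front-body sample has no replicate.

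The front body of a mite, named the proterosoma, bears the mouthparts and the front legs. It houses the salivary glands and the central nerve mass, called the synganglion. The ovary, much of the midgut and the excretory gut lie behind it in an adult female. A transcript made only in those hind organs is present in an intact body, which also contains its own front body, and can reach a front-body sample with tissue or fluid carried over in dissection. In samples of whole tissue, fewer cells of a kind and less RNA per cell cannot be told apart.

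None of the 245 identifiers was matched to a gene name or a sequence, so no gene is given a product, a tissue or a role, and the body parts were not checked against marker genes. Reads per library were 19667380 for the proterosoma and 11630954 to 23647775 for the whole bodies. A gene with no read in the proterosoma library could still have stood at up to 0.153 CPM there, the level of 3 reads. This limit and all intervals on read counts cover counting error only. CPM values are not corrected for gene length, so an order of genes by CPM is an order by reads and not by number of transcripts.

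The 245 genes held 0.225% of the proterosoma reads (exact binomial 95% interval 0.223 to 0.227%), against 9.64%, 9.50% and 9.73% of the reads of whole-body replicates 1, 2 and 3. The whole-body share averaged 9.62% ± 0.116 (SD, n = 3). Summed over the 245 genes, the proterosoma level was 2.34% of the whole-body level, or 42.7-fold lower. With TMM scaling, which puts the proterosoma levels higher, it was 3.38%, and 187 of the 245 genes still met the limits. The remaining 1882 genes with at least 100 CPM in whole bodies held 59.6% of the proterosoma reads against 65.3% ± 0.810 (SD, n = 3) in whole bodies. Of the 2127 genes with at least 100 CPM, 11.5% met the ratio of at most 1/16. That share describes the rule itself and is not a test. No gene with at least 100 CPM in whole bodies was without a proterosoma read, so the minimum of 1 read removed none. The highest whole-body mean of any gene with no proterosoma read was 30.8 CPM.

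**Figure D1:**
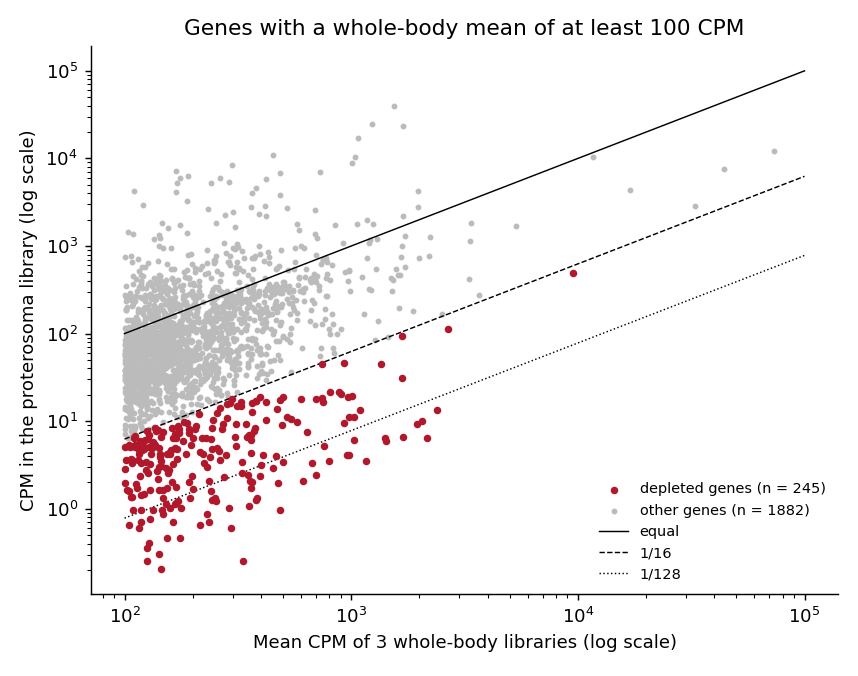
Each point is a gene with a whole-body mean of at least 100 CPM, placed by its mean CPM over 3 whole-body libraries (x axis, log scale) and its CPM in the proterosoma library (y axis, log scale), with lines at equal levels, 1/16 and 1/128. The 245 depleted genes (red) lie under the 1/16 line and reach down to 0.203 CPM in the proterosoma library, and all but 2 of the 1882 other genes (grey) lie above it. Those 2 exceed the limit only with the 0.1 CPM added to both levels, which the plotted values do not include.

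A few genes carried much of what was left in the front body. The gene tetur18g03030 alone accounted for 22.0% of the proterosoma reads of the set, and for 9.87% of its whole-body level. The 5 genes with the most proterosoma reads made up 35.2% of the set's reads there, and the 20 with the most made up 49.6%. Only 2 of the 245 genes reached 100 CPM in the proterosoma library, 44 reached 10 CPM, and 23 stayed under 1 CPM. In whole bodies 17 of the genes reached 1000 CPM and 122 reached 200 CPM. The median gene had 4.78 CPM in the proterosoma library, from 94 reads, and 199 CPM in whole bodies. By reads, 27 of the set were among the 100 highest genes of the whole body. The median rank of the set was 8783 in the proterosoma library, where 14594 genes had a read, and 822 in whole bodies.

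The most read of these genes, tetur18g03030, ranked 269th by reads in the front body and 6th in the whole body. It stood at 496 CPM in the proterosoma library, against 6463, 9283 and 12740 CPM in whole-body replicates 1, 2 and 3. Its proterosoma level was 5.22% of the whole-body mean (exact Poisson 95% interval of the proterosoma count 5.12 to 5.33%), close to the limit of the set. Its place in the set rests on whole-body replicate 3: without that library its level was 6.30%, just above the limit, and with TMM scaling it was 7.50%. The next gene, tetur04g02070, gave 114 CPM in the proterosoma library, against 2622, 2681 and 2709 CPM in whole bodies. The whole-body libraries barely differed for it, and its proterosoma level was 4.25%. The gene tetur20g01290 was similar in depth, with 92.7 CPM in the proterosoma library, against 1692, 1472 and 1860 CPM in whole bodies, a level of 5.54%.

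The other 5 of the 8 most read genes were far deeper. The gene tetur06g03310 had 13.5 CPM in the proterosoma library, against 2551, 2443 and 2166 CPM in whole bodies. The gene tetur27g01310 had 6.41 CPM in the proterosoma library, against 2099, 2115 and 2236 CPM in whole bodies. The gene tetur05g04500 had 10.02 CPM in the proterosoma library, against 2224, 2022 and 1887 CPM in whole bodies. In these genes the highest whole-body value was 1.18, 1.07 and 1.18 times the lowest, in the order given here. The whole-body mean was 176, 336 and 204 times the proterosoma value, in the same order. For tetur22g00130 the proterosoma library gave 9.41 CPM, against 2019, 1958 and 1860 CPM in whole bodies. For tetur26g01130 it gave 6.66 CPM, against 1757, 1673 and 1644 CPM in whole bodies. The levels of the 5 genes were 0.567%, 0.298%, 0.490%, 0.483% and 0.394% of the whole-body mean in the order given here. These 5 genes thus lay between 0.298% and 0.567%, far below the 3 genes before them, although all 8 were among the 29 most read genes of the whole body.

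**Figure D2:**
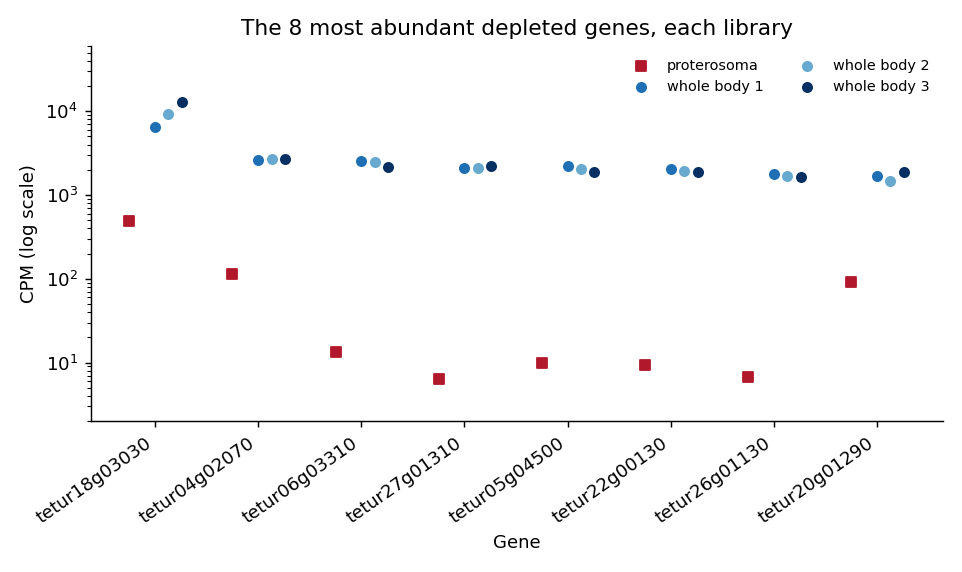
CPM (log scale) of the 8 most read depleted genes in the proterosoma library (red squares) and in whole-body replicates 1 to 3 (blue circles). The proterosoma values run from 6.41 CPM for tetur27g01310 to 496 CPM for tetur18g03030, and each lies under its 3 whole-body values.

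The depletion was graded between mild and deep. The proterosoma level ran from 0.0759% to 6.11% of the whole-body level over the 245 genes, with a median of 2.06% and quartiles of 0.790% and 3.92%. By ratio, 84 genes lay between 1/32 and 1/16, 68 between 1/64 and 1/32, 35 between 1/128 and 1/64, 39 between 1/256 and 1/128, and 19 at or below 1/256. The numbers fell from the limit downward to 1/128 and were level in the next interval, at 35 and 39 genes. Just above the limit, 144 genes with at least 100 CPM lay between 1/16 and 1/8, so the set is the lower tail of a distribution that continues above the limit. In steps of 0.5 log2 units, the tail held 24 genes at log2 levels of -7.5 to -7, with 16 in the step below and 14 in the step above. The lowest gene, counted from 5 reads, lay below an empty step from -10 to -9.5, which its own counting interval spans.

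**Figure D3:**
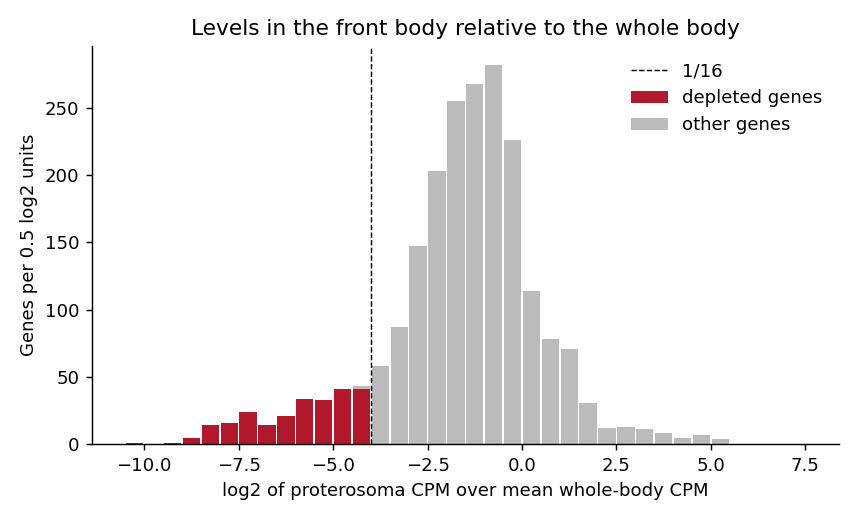
Number of genes with at least 100 CPM in whole bodies (y axis) per 0.5 log2 units of the proterosoma over whole-body level (x axis), with the depleted genes in red, the other genes in grey and the 1/16 limit dashed. Below the limit the bars decline, with 24 genes at -7.5 to -7 between steps of 16 and 14, and the lowest bar is 1 gene counted from 5 reads.

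The rule sets an upper limit to the levels, and its only lower one, 1 proterosoma read, removed no gene. Under the upper limit the log2 level had an SD of 1.37 over the 245 genes, and counting of the proterosoma reads alone would give 0.21. The summed level of the set, 2.34%, lay inside the exact Poisson 95% interval of 38 of the 245 genes. Summed, the 58 genes at a ratio of at most 1/128 stood at 0.451% of the whole-body level, and that value lay inside the interval of 45 of the 58. Their intervals were wide, since the median gene of this class had 25 proterosoma reads. The corresponding numbers were 30 of 35 genes between 1/128 and 1/64, around a summed level of 1.09%, 40 of 68 between 1/64 and 1/32, around 2.23%, and 45 of 84 between 1/32 and 1/16, around 4.72%. The classes above 1/128 span 2-fold by construction, the lowest class has no lower limit beyond 1 read, and the reads per gene differ. These numbers thus describe the classes and do not compare them. The part of hind-body RNA carried over into the front-body sample in these levels was not tested.

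The whole-body level was set beside the depth of depletion. The median whole-body mean was 315 CPM for the 58 genes at most 1/128, 200 CPM and 221 CPM for the classes up to 1/64 and 1/32, and 155 CPM for the class up to 1/16. Over the 245 genes the whole-body mean and the level had a Spearman correlation of -0.26, and a Pearson correlation of -0.23 on log2 values. Genes are not independent, the whole-body mean enters both measures, and no p-value is given. The 58 deepest genes held 0.0140% of the proterosoma reads, against 3.11% ± 0.162 (SD, n = 3) in whole bodies. The 84 genes nearest to the limit held 0.149% of the proterosoma reads, against 3.16% ± 0.327 (SD, n = 3) in whole bodies. Of the 84, tetur18g03030 carried much of this share: the other 83 held 0.0996% of the proterosoma reads, against 2.21% ± 0.0374 (SD, n = 3) in whole bodies.

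The 5 genes with the lowest ratio were detected by few reads. The gene tetur28g01390 had 5 proterosoma reads, or 0.254 CPM, against 344, 354 and 306 CPM in whole-body replicates 1, 2 and 3. Its level was 0.0759% of the whole-body mean, with a Poisson interval of 0.0247 to 0.177%, which is 1317-fold lower. Beside it, tetur28g01400 had 4 proterosoma reads, or 0.203 CPM, against 155, 145 and 136 CPM in whole bodies, and its level was 0.140% (0.0381 to 0.358%). These were the fewest proterosoma reads in the set. The gene tetur17g02330 had 19 proterosoma reads, or 0.966 CPM, against 504, 495 and 457 CPM in whole bodies. Its level of 0.199% (0.120 to 0.311%) lay within the intervals of tetur01g09220, at 0.206% (0.106 to 0.360%), and of tetur01g11810, at 0.203% (0.0659 to 0.474%). The order among the last 3 genes is thus not resolved by these reads. The interval of tetur28g01390 overlapped those of the other 4, so it was not separated from them either.

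At the limits of the rule the choice was fine. The genes just inside the ratio limit were tetur30g01510, tetur03g03440 and tetur15g01600, with ratios of 6.13%, 6.14% and 6.17%. Just outside were tetur22g01730, tetur08g06110 and tetur13g03700, with ratios of 6.28%, 6.30% and 6.30%. Just inside the whole-body limit, at 100.5, 100.5 and 100.8 CPM, were tetur02g11710, tetur28g02060 and tetur03g02440. Just outside it, tetur09g00680, tetur18g01970 and tetur19g02770 had whole-body means of 99.8, 99.5 and 97.9 CPM. Of these, tetur18g01970 stood at 0.358% in the front body, deeper than most of the set, and was left out for its whole-body mean alone.

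Most depleted genes differed little among the 3 whole-body libraries. That spread between whole-body libraries was not used to choose the genes. The coefficient of variation (CV, the SD over the mean) over the 3 whole-body libraries had a median of 5.96% in the depleted genes and 5.51% in the 1882 other genes with at least 100 CPM. With TMM scaling the medians were 4.16% for the depleted genes and 4.68% for the others, so which group has the lower median depends on the scaling. It also depends on the libraries: with the set chosen anew, the medians were 4.03% for the depleted genes and 4.50% for the others without replicate 1, 6.77% and 5.82% without replicate 2, and 3.74% and 3.35% without replicate 3. A CV over 10% was found for 26 of 245 depleted genes (10.6%), against 409 of 1882 other genes (21.7%). A CV over 20% was found for 6 depleted genes (2.45%), against 84 other genes (4.46%). With TMM scaling 16 depleted genes (6.53%) had a CV over 10%, against 362 other genes (19.2%). Without replicate 2 the difference was gone, with a CV over 10% in 63 of 251 depleted genes (25.1%), against 465 of 1887 other genes (24.6%). Those values rest on replicates 1 and 3 with library-size scaling, and no library was left out with TMM scaling. Without replicate 1 the numbers were 21 of 242 (8.68%) against 405 of 1843 (22.0%), and without replicate 3 they were 16 of 243 (6.58%) against 209 of 1899 (11.01%). These are descriptions over genes, which share the same 3 libraries, and no test was made. The most even gene was tetur03g02440, with 5.14 CPM in the proterosoma library, against 101, 101 and 100 CPM in whole bodies (CV 0.535%). The genes tetur05g00890 and tetur13g00670 followed, with CVs of 0.584% and 0.656%.

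A handful of genes departed from this. The gene tetur18g03020 had the widest spread, with 18.9 CPM in the proterosoma library, against 299, 438 and 771 CPM in whole-body replicates 1, 2 and 3 (CV 48.3%). It is listed directly before tetur18g03030, whose CV was 33.1%. Both genes were lowest in whole-body replicate 1 and highest in replicate 3. Their levels in the front body were 3.75% and 5.22% of the whole-body mean. Whether these neighbours share reads was not tested. The gene tetur03g09490 showed the same order of libraries, with 14.3 CPM in the proterosoma library, against 165, 263 and 365 CPM in whole bodies (CV 37.8%). So did tetur28g01250, with 5.24 CPM in the proterosoma library, against 88.0, 102 and 141 CPM in whole bodies (CV 25.2%). These 4 genes lay between 3.75% and 5.40% in the front body. Not every gene with a CV over 20% had this order of libraries. Replicate 2 was lowest for tetur03g03440, at 106, 88.9 and 137 CPM in whole bodies (CV 22.1%). It was also lowest for tetur03g08030, at 192, 134 and 198 CPM (CV 20.1%). Over the 245 genes the CV and the level had a Spearman correlation of -0.0789, and of 0.0752 with TMM scaling. The median CV was 6.75% in the class at most 1/128 and 5.66% in the class nearest to the limit, and with TMM scaling it was 4.24% and 4.27%.

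With library-size scaling, small shifts between the whole-body libraries ran in one direction for most of the set. Whole-body replicate 1 gave the highest value of 165 of the 245 depleted genes (67.3%), against 1008 of the 1882 other genes (53.6%). Replicate 3 gave the lowest value of 159 depleted genes (64.9%), against 1124 other genes (59.7%). The pattern was graded with depth. Replicate 1 was highest for 51 of the 58 genes at most 1/128, 26 of 35 between 1/128 and 1/64, 41 of 68 between 1/64 and 1/32, and 47 of 84 between 1/32 and 1/16. The median shift was small: in the deepest class replicate 1 stood 0.09 log2 units above and replicate 3 stood at -0.09 relative to the 3-library mean.

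The numbers depend on the scaling. With TMM scaling replicate 1 was highest for 108 of the 245 depleted genes, with DESeq2 size factors for 100, and with library totals taken without the 10 most read genes for 109. The share among the 1882 other genes was then 25.8%, 24.8% and 26.6%. With TMM scaling replicate 1 was highest for 35 of the 58 deepest genes and for 26 of the 84 genes nearest to the limit. The deepest genes thus kept the larger share under each scaling run, at 35, 32 and 35 of 58, against 26, 25 and 27 of 84. Whether the pools differed in animals or in handling was not tested.

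**Figure D4:**
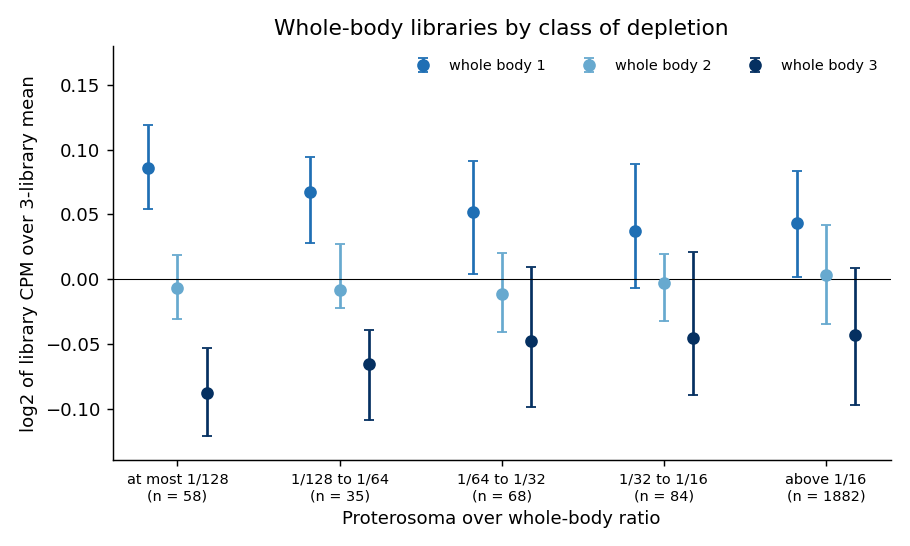
Median log2 of each whole-body library's CPM over the 3-library mean (points) with the quartiles (bars), by class of the proterosoma over whole-body ratio, for library-size scaling. In the 58 genes at most 1/128 the medians are 0.09 for replicate 1 and -0.09 for replicate 3, and they lie nearer to 0 in the class of 1/32 to 1/16, at 0.04 and -0.05.

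Depleted genes were found on 40 of the 51 scaffolds that carry a gene with at least 100 CPM, as read from the scaffold number in each identifier. Their order was taken from the serial number in the identifier and was not checked against an annotation. Scaffold 5 had the most, 19 of its 108 genes with at least 100 CPM, and scaffolds 2 and 3 had 17 each, of 160 and 111. On scaffold 28, 12 of 41 such genes (29.3%) were in the set, beside 11.5% over all scaffolds. They were spread over positions 31 to 204 of its 258 listed genes. Scaffold 28 was singled out after the shares of all 51 scaffolds were seen. Only scaffolds 40 and 157 had higher shares, with 1 of 3 and 1 of 1 such genes. The pair tetur28g01390 and tetur28g01400 had the lowest measured levels, though their counting intervals overlapped those of other genes. This pair was followed after 1 other identifier by tetur28g01420, at 0.298% of the whole-body level.

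Side-by-side depleted genes were a minority, in short runs. Of the 245 genes, 207 had no depleted gene directly beside them and 38 (15.5%) had one. The 38 formed 14 pairs, 2 runs of 3 and 1 run of 4. Among the 1882 other genes with at least 100 CPM, 85 (4.52%) were listed next to a depleted gene, and among all 17775 genes outside the set 444 (2.498%) were. Of the 245 depleted genes 110 (44.9%) lay next to some gene with at least 100 CPM, against 589 of the 1882 others (31.3%). The 110 include the 38, since every depleted gene has at least 100 CPM, so this share is not separate from the 15.5%. The differences between these shares were not tested.

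The run of 4 was tetur05g04490, tetur05g04500, tetur05g04510 and tetur05g04520 on scaffold 5. All were deep in the front body. The gene tetur05g04490 had 2.03 CPM in the proterosoma library, against 407, 352 and 335 CPM in whole bodies. The gene tetur05g04510 had 1.07 CPM in the proterosoma library, against 370, 351 and 338 CPM in whole bodies. The gene tetur05g04520 had 2.34 CPM in the proterosoma library, against 454, 382 and 357 CPM in whole bodies. With tetur05g04500 at 0.490%, the levels were 0.558%, 0.302% and 0.588% for these 3 genes, so the run spanned less than 2-fold. The run ended sharply on both sides. The gene before it, tetur05g04480, had 146 CPM in the proterosoma library, against a whole-body mean of 141 ± 19.7 CPM (SD, n = 3), a level of 104%. The gene after it, tetur05g04530, had 3.05 CPM in the proterosoma library, against a whole-body mean of 5.59 ± 0.459 CPM (SD, n = 3), a level of 54.5%.

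The runs of 3 lay on scaffolds 7 and 14. On scaffold 7, tetur07g01510 had 4.27 CPM in the proterosoma library, against 127, 133 and 133 CPM in whole bodies. Its neighbour tetur07g01520 had 16.7 CPM in the proterosoma library, against 455, 426 and 380 CPM in whole bodies. The last of the run, tetur07g01530, had 11.2 CPM in the proterosoma library, against 1072, 977 and 899 CPM in whole bodies. Their levels were 3.26%, 3.98% and 1.14%, so the most read gene of this run was also the deepest. The gene before the run, tetur07g01500, had 3.86 CPM in the proterosoma library, against 19.0 ± 0.586 CPM in whole bodies (SD, n = 3), a level of 20.3%. The gene after it, tetur07g01540, was higher in the front body, at 62.5 CPM, against 21.8 ± 1.36 CPM in whole bodies (SD, n = 3). On scaffold 14, tetur14g02060, tetur14g02070 and tetur14g02080 had 4.68, 8.24 and 9.25 CPM in the proterosoma library, against means of 161 ± 12.7, 205 ± 30.0 and 310 ± 37.7 CPM in whole bodies (SD, n = 3). Their levels of 2.91%, 4.02% and 2.98% were alike, and those of the flanking genes tetur14g02050 and tetur14g02090 were 18.9% and 24.8%.

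Levels within adjacent pairs were set beside those over all pairs of depleted genes. Over the 21 adjacent pairs the median difference of the log2 level was 0.96, and over all 29890 pairs of depleted genes it was 1.28. Within 2-fold of each other were 12 of the 21 adjacent pairs (57.1%) and 41.0% of all pairs. The same whole-body library was highest in both genes for 15 of the 21 adjacent pairs (71.4%), and for 50.5% of all pairs. With 21 pairs these shares are rough, they were not tested, and reads shared by adjacent copies or overlapping genes were not examined.

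The genes around the set were examined for the same depletion. Only genes with at least 1 CPM in whole bodies were counted. Of 393 such genes listed directly beside a depleted gene, 104 (26.5%) had a ratio of at most 1/4. Of all 11546 such genes, 2936 (25.4%) did. The 393 include the 38 depleted genes that lie beside another, and the 11546 include all 245. These are at most 1/4 by the rule, so 38 of the 104 and 245 of the 2936 were fixed in advance. Depleted genes make up more of the 393 than of the 11546. The near-equal shares thus do not show that neighbours outside the set match the other genes. With depleted genes left out of both counts, the direct neighbours have the lower share. From 2 to 10 places away the share lay between 23.8% and 30.4%, with 4 to 16 depleted genes included. The median ratio of the direct neighbours was 55.2%, against 58.3% for all such genes. The same gene can be counted at several distances, and the shares were not tested.

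**Figure D5:**
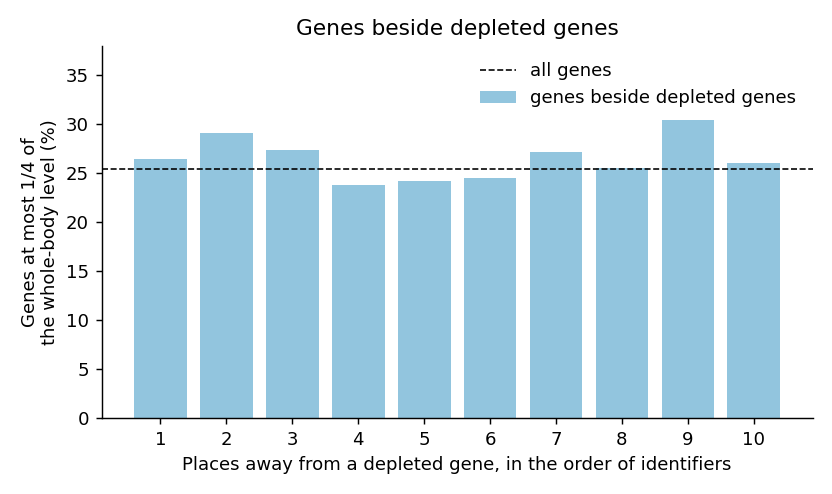
Percentage of genes with a proterosoma over whole-body ratio of at most 1/4 (y axis) by the number of places from a depleted gene in the order of identifiers (x axis), depleted genes included, with the share over all genes dashed. The bar next to the depleted genes is at 26.5%, with 25.4% over all genes, and the bars farther away lie on both sides of the dashed line. The depleted genes included are at most 1/4 by the rule, so the bars do not describe the other neighbours alone.

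The authors' deposited table listed all 245 genes, each with a negative log2 fold. Its header does not name the numerator, and since all 245 genes were lower in the proterosoma counts, the negative sign was read as lower there. In the authors' deposited table their log2 folds ran from -9.55 to -3.47 with a median of -5.03, where the median log2 level by library size was -5.60. The authors' folds rest on their own normalisation, so these medians are on different scales. The errors in the authors' deposited table ran from 0.13 to 0.81, with the largest for tetur18g03020 (log2 fold -3.99, error 0.81). In the authors' deposited table tetur18g03030 had -3.62 (error 0.58) and tetur28g01390 had -9.55 (error 0.59). These folds use the contrast that chose the genes and add no separate evidence.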

How the data were processed

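RNA sequencing libraries came from strand-specific preparations, per the labels' protocols. The authors deposited unnormalised read counts by gene. Per the submitters' processing notes the tools were STAR (2.5.0b), HTSeq (0.6.0) and, for the comparison, DESeq2 (1.6.3). Genome build, gene models, strandedness of counting and handling of multi-mapping reads were not given in the sources used here, so near-identical or overlapping genes may share or lose reads. The authors' deposited comparison holds, per the file headers, a mean normalised signal, log2 folds with errors, a score, and raw and adjusted p-values. Only its log2 folds and errors are printed here.

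Counts were divided by column totals to give CPM (pandas 2.3.3, numpy 2.4.6, scipy 1.17.1). The genes were selected by this ratio, so no test of the body parts was run. Intervals are exact, at 95%. Alternatives were TMM scaling (edgeR 4.0.16), DESeq2 1.42.0 size factors, other limits, and each whole-body library left out. The selection and spread steps were tested on simulated counts. The reference gene table matched 0 of the 18020 identifiers.

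The set of genes and the lists were chosen with earlier results of these data known. Named genes are the 8 most read, the 5 lowest by ratio, the 4 highest and 3 lowest by CV, the 3 longest runs, the 3 on each side of each limit, and those with the most and fewest proterosoma reads. Genes flanking the runs, tetur28g01420, tetur03g08030 and the authors' fold of tetur18g03020 were named after their values were seen.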

Additional observations from a re-analysis of the deposited data

How the results depend on the processing

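Of 91 values under alternatives, 49 stayed within the spread or within 1.5 times the count. With TMM scaling the set had 187 genes, all in the original set, and with DESeq2 size factors 183, likewise; 235 of the 245 were selected without each whole-body library in turn. Without a whole-body replicate the number of genes was 242 to 251, the share of proterosoma reads 0.173 to 0.238%, the share of whole-body reads 8.75 to 9.91%, the median ratio 0.0206 to 0.0219, the median CV 3.74 to 6.77%, genes with an adjacent member 38 to 38 and the longest run 4 to 4. The low share of 0.173% is that without replicate 3, where tetur18g03030 left the set. Adjacent genes and runs were not counted anew with TMM scaling or size factors, which leave fewer genes in the set.

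Shares of proterosoma and whole-body reads were 0.115% and 7.41% with TMM, 0.101% and 7.10% with size factors, 0.250% and 10.5% from 50 CPM, 0.179% and 7.91% from 200 CPM, 0.945% and 17.6% at a ratio of 1/8, 0.0761% and 6.46% at 1/32, and 0.176% and 8.68% without tetur18g03030. The proterosoma share was 0.219% with 1 CPM added, and the whole-body share 9.49% from 10 proterosoma reads. Median ratios were 0.0245 (TMM), 0.0247 (size factors), 0.0248 (1 CPM added), 0.0219 (10 reads), 0.0225 (50 CPM), 0.0183 (200 CPM), 0.0425 (1/8) and 0.0123 (1/32). The median CV was 4.16% with TMM. The set had 122 genes from 200 CPM, 389 at 1/8 and 161 at 1/32; genes with an adjacent member numbered 18 from 200 CPM and 18 at 1/32. These limits admit more or fewer genes by construction. Chosen after seeing the data: replicate 1 was highest for 108 (TMM), 100 (size factors) and 109 genes (totals without the 10 most read), and 19.6% of next genes were at most 1/4 with TMM, against 17.9% of all genes. Both of these shares include depleted genes, which meet 1/4 by the rule. No paired analysis was possible because there is a single proterosoma library without a replicate number. With 1 proterosoma library, no level has a replicate check there, and genes under 10 proterosoma reads, 8 of the set, have wide intervals.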
